A study of Mus musculus with 4 samples.

Results

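Cardiac fibroblast genes that do not encode collagens were examined in P7 hearts of *miR-128*-overexpressing and control mice. The 10 genes were *Pdgfra*, *Tcf21*, *Dcn*, *Lum*, *Postn*, *Fn1*, *Fbln2*, *Mfap5*, *Eln* and *Ddr2*. They were taken by name from a table of 24454 genes after its Entrez identifiers had been matched to symbols, and all 10 were found. RNA-seq was performed on heart tissue at postnatal day 7, and the Ctrl group (WH7, WH8) and the miR-128OE group (WH9, WH10) had 2 libraries each. All mice were on a C57BL/6 background. Ctrl mice carried the *miR-128* TetRE allele alone, a *miR-128* sequence behind a tetracycline-responsive element knocked in at Rosa26. miR-128OE mice carried the same allele together with an *α-MHC*-tTA driver, in which the α-myosin heavy chain promoter expresses the tetracycline transactivator in cardiomyocytes (CMs), so that *miR-128* was induced once doxycycline was withdrawn. The doxycycline schedule of these libraries is not stated in the sources used here, and the labels do not say whether each library came from 1 heart or from pooled hearts. P-values therefore measure the spread between libraries, which may be technical. The driver is specific to CMs, while the RNA came from all cells of the heart.

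Fibroblasts are the main interstitial cells of the heart. They build the extracellular matrix around CMs and vessels, and after birth they lay down collagen, proteoglycans, fibronectin and elastic fibres as the ventricle grows. PDGFRα is a receptor tyrosine kinase on their surface and TCF21 a transcription factor needed for their formation from the epicardium. The products of the other genes are matrix proteins, apart from DDR2, which is a receptor for fibrillar collagen. Matrix genes such as *Eln* and *Fn1* are also made by smooth muscle and endothelial cells, so the list marks fibroblasts only in part.

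The overexpressed miRNA recognises its targets by bases 2 to 8 of its 5′ end, and its mature sequence is shown because these bases were searched for in the fibroblast genes. RefSeq places it in *Mir128-1* (GRCm38.p6, chr1:128202404-128202424, plus strand) and in *Mir128-2* (chr9:112118644-112118664, minus strand), and capitals mark the seed.
miR-128-3p: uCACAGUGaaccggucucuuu
The seed pairs with CACTGTG in a 3′ UTR, or with ACTGTGA where an A stands opposite the first base. Both words were searched on the transcribed strand of the longest 3′ UTR of each gene in GENCODE M21 (GRCm38), and they overlap in ACTGTG, so a run holding both was counted once. A site was found in 4 of the 10 fibroblast genes, beside 31.0% of the 13496 tested genes with a 3′ UTR. *Pdgfra* and *Ddr2* each had 2 sites, and *Dcn* and *Fbln2* each had 1. The sites follow with 11 bases on either side, in capitals, and *Ddr2* lies on the minus strand.
*Pdgfra*, chr5:75197498-75197504: gccctggaactCACTGTGtaaaccaggct
*Pdgfra*, chr5:75197952-75197958: tattttttttaACTGTGAtattccccaca
*Dcn*, chr10:97517774-97517780: aaattcaagcaCACTGTGcatgccttttc
*Fbln2*, chr6:91272162-91272168: attccttcatcCACTGTGttcctcaatta
*Ddr2*, chr1:169974047-169974053: atgtccttgggCACTGTGtggggcaaggc
*Ddr2*, chr1:169972572-169972578: acttcctgcagCACTGTGgtggactcttc
Longer 3′ UTRs held these words more often. Among tested genes whose 3′ UTR was within 20% of the same length, 71.5% had a site for *Ddr2* (5548 nt), 51.9% for *Pdgfra* (3115 nt), 16.8% for *Fbln2* (661 nt) and 13.1% for *Dcn* (488 nt). These are matches of letters, not measured binding.

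Library totals were 12385863 counts in WH7, 8096870 in WH8, 12440553 in WH9 and 14359838 in WH10, so WH8 was the shallowest. Normalized counts below are counts scaled by TMM to the mean effective library size, and 3 counts, taken as the detection floor, corresponded to 2.52 to 4.24 normalized counts. All 10 fibroblast genes stood far above that floor and passed the filter on low counts. The lowest raw count among them was 210, for *Tcf21* in WH8. WH8 also stood apart in these genes. All 10 had fewer normalized counts in WH8 than in WH7, against 46.6% of the 14266 genes tested, and 9 of 10 were lowest in WH8 of all 4 libraries, against 28.0% of genes tested. The median log2 ratio of WH8 to WH7 was −0.44 over the 10 genes and 0.02 over all genes. WH8 was also below WH7 in 19 of 20 other fibroblast-enriched genes and 17 of 17 genes of activated fibroblasts, *Postn* among them. The same held for 10 of 10 small leucine-rich proteoglycans, *Dcn* and *Lum* among them, and 9 of 9 epicardial markers. A lower WH8 was thus not particular to the 10 genes. In these lists, taken in the same order, WH8 was the lowest of the 4 libraries for 15, 9, 8 and 5 genes. The miR-128OE libraries lay closer together, with a median absolute log2 ratio between WH10 and WH9 of 0.09 for the fibroblast genes and 0.12 for all genes. Each result was therefore also computed without WH8 and without WH7. Each such fit, like those without WH9 or WH10, left a single library in that group. Each gene's own spread then came only from the 2 libraries of the other group. The 2 Ctrl libraries also differed from the miR-128OE libraries in sex. *Xist*, transcribed from the inactive X chromosome of females, had 14543 and 11339 counts in Ctrl and 94 and 132 counts in miR-128OE, and *Ddx3y* on the Y chromosome had 13, 7, 1442 and 1768 counts in WH7, WH8, WH9 and WH10. The Ctrl hearts thus read as female and the miR-128OE hearts as male, and genotype and sex cannot be told apart in any comparison here. Counts on the *miR-128* genes, which do not measure the mature miRNA, were 0 in all libraries for *Mir128-1* and 0, 0, 2 and 10 for *Mir128-2*.

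In the comparison of genotypes, *Lum* and *Mfap5* were higher in miR-128OE hearts, *Ddr2* was lower, and the other 7 fibroblast genes did not pass the threshold of an adjusted p under 0.05 (edgeR quasi-likelihood test, adjusted over all genes tested). Thus 2 of 10 were called higher, beside 16.5% of all genes tested, and 1 of 10 lower, beside 15.0%, and neither count stands far from its background. The median log2 fold change was 0.28 over the 10 genes and −0.01 over all genes tested. In 5 of the 10 genes both miR-128OE libraries lay above both Ctrl libraries, a pattern seen in 33.7% of all genes tested. In 1 gene both lay below, against 34.4% of all genes, and in 4 the groups overlapped. The number of genes called changed with the libraries used. With a library left out, each gene's own spread came only from the group that kept 2 libraries, so these calls do not show stability. Without WH7 9 genes were called higher and none lower, beside 18.3% and 16.7% of all genes tested, and the median was 0.60. Without WH8 *Lum* and *Mfap5* were called higher and *Ddr2* lower, beside 17.0% and 14.5% of all genes, and the median was 0.07. Without WH9 *Mfap5* alone was called, beside 5.65% of all genes higher and 4.32% lower. Without WH10 none of the 10 was called, beside 7.93% higher and 6.67% lower. For the further lists, counts with a library left out are to be read beside these shares for the same library. In whole hearts, more fibroblasts and more RNA per fibroblast cannot be told apart. Nor can fewer fibroblasts be told from less RNA in each.

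**Figure D1:**
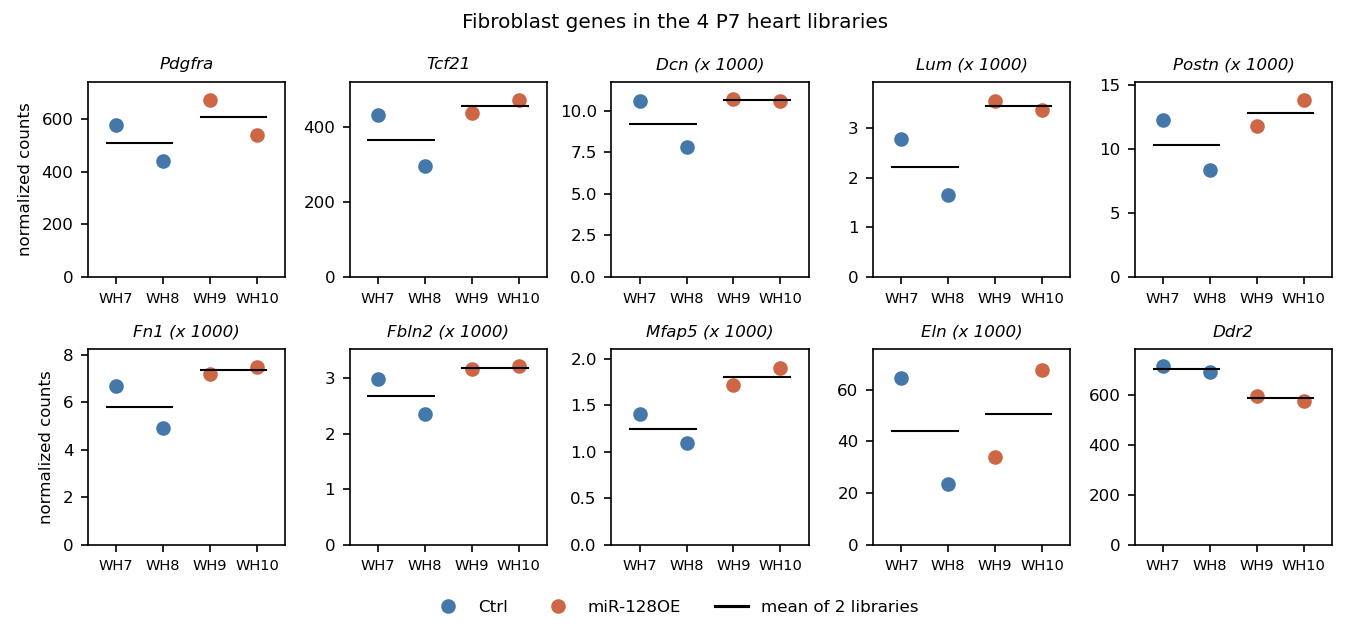
Normalized counts of the 10 fibroblast genes (vertical axes from 0, in units of 1000 where the panel says so) in each library (horizontal axes), with Ctrl in blue, miR-128OE in orange and the mean of 2 libraries as a line. WH8 is the lowest point for every gene but *Ddr2*, and *Lum*, *Mfap5* and *Ddr2* are the genes called.

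*Lum* encodes lumican, a small leucine-rich proteoglycan that binds collagen fibrils and sets their spacing. It lies on chromosome 10 (chr10:97565128-97572703, plus strand). *Lum* had 2780 and 1654 normalized counts in WH7 and WH8, and 3546 and 3366 in WH9 and WH10. Both miR-128OE libraries were above both Ctrl libraries, which were themselves far apart. Ctrl averaged 2217 ± 796 (SD, n = 2), miR-128OE averaged 3456 ± 127 (SD, n = 2), and the log2 fold change was 0.63 with a standard error of 0.19 (adjusted p = 0.0286). The change was 1.06 without WH7 and 0.31 without WH8. It did not pass without WH9 (adjusted p = 0.160), without WH10 (0.103), with DESeq2 (0.207), or when libraries were scaled by total counts (0.0603).

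*Dcn*, which lies near *Lum* on chromosome 10 (chr10:97479609-97518143, plus strand), encodes decorin, the related proteoglycan that binds collagen and TGF-β. Its normalized counts were 10606 in WH7, 7812 in WH8, 10704 in WH9 and 10562 in WH10. WH8 alone was low, and WH7 lay between both miR-128OE libraries. The log2 fold change of *Dcn* was 0.21 ± 0.13 (SE, adjusted p = 0.259), with a 95% interval from −0.09 to 0.50. It was 0.44 without WH7 and 0.00 without WH8. The list of small leucine-rich proteoglycans held 12 genes, of which 10 were tested and *Kera* and *Epyc* were too low. Of the 10, *Lum* and *Ogn* were called higher, *Fmod* was called lower, and the median log2 fold change was 0.08. Without the members *Lum* and *Dcn* the median was −0.04. *Fmod*, encoding fibromodulin, had 705, 475, 284 and 251 normalized counts in WH7, WH8, WH9 and WH10. Its log2 fold change was −1.16 ± 0.17 (SE, adjusted p = 0.00128), and it lay between −1.40 and −0.83 with any 1 library left out. *Ogn*, encoding osteoglycin, had a log2 fold change of 0.61 ± 0.12 (SE, adjusted p = 0.00423) and lost its call without WH9 (adjusted p = 0.0544). The counts of 2 and 1 of 10 were near the 16.5% higher and 15.0% lower of all genes tested. The number of genes of the family called changed with the library left out. *Lum*, *Ogn* and *Fmod* had log2 fold changes of 1.06, 0.821 and −0.832 without WH7, and of 0.314, 0.432 and −1.40 without WH8.

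*Mfap5* encodes a microfibril-associated glycoprotein (MAGP2) of the fibrillin scaffold on which elastin is deposited. It lies on chromosome 6 (chr6:122505845-122529290, plus strand). There were 1404 and 1095 normalized counts in WH7 and WH8, and 1719 and 1905 in WH9 and WH10, so the groups did not overlap. The log2 fold change was 0.53 ± 0.12 (SE, adjusted p = 0.00805). It was 0.73 without WH7 and 0.37 without WH8, and among the 14 alternative settings the call was lost only without WH10 (adjusted p = 0.0847) and where a change of at least 1.5-fold was required.

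*Fbln2* encodes fibulin-2, which joins fibronectin, fibrillin and elastin, and lies on chromosome 6 (chr6:91212455-91272540, plus strand). It had 2982, 2360, 3171 and 3210 normalized counts in WH7, WH8, WH9 and WH10. Both miR-128OE libraries lay above both Ctrl libraries, but WH7 was close to them. The log2 fold change of *Fbln2* was 0.25 ± 0.11 (SE, adjusted p = 0.102), with values of 0.43 without WH7 and 0.10 without WH8.

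*Eln*, encoding elastin, the extensible core of elastic fibres in arteries and valves, showed another pattern. It lies on chromosome 5 (chr5:134702593-134747323, minus strand). *Eln* had 64687 normalized counts in WH7, 23611 in WH8, 33776 in WH9 and 67673 in WH10. The spread was within each genotype, since each had 1 high and 1 low library. Ctrl averaged 44149 ± 29045 (SD, n = 2) and miR-128OE averaged 50724 ± 23969 (SD, n = 2). The log2 fold change was 0.20 ± 0.41 (SE, adjusted p = 0.745), with a 95% interval from −0.72 to 1.12, which leaves a change in either direction possible. The direction turned when WH8 (−0.35) or WH10 (−0.38) was left out. Within the miR-128OE pair the log2 ratio of WH10 to WH9 was 1.00, against 0.05 for *Fn1* and 0.23 for *Postn*. Smooth muscle of the great arteries is a rich source of elastin, and 4 genes of smooth muscle were set beside *Eln* after their values had been seen. *Cnn1*, encoding the smooth muscle protein calponin, had 330 normalized counts in WH7, 157 in WH8, 233 in WH9 and 553 in WH10. *Tagln*, encoding transgelin, had 2621 in WH7, 1798 in WH8, 1162 in WH9 and 2256 in WH10. Both genes were thus higher in WH7 than in WH8 and higher in WH10 than in WH9, like *Eln*. *Myh11*, encoding smooth muscle myosin, had 2271, 2138, 1032 and 1800 in WH7, WH8, WH9 and WH10, with the smaller gap in Ctrl. Both miR-128OE libraries of *Myh11* lay below both Ctrl libraries. It was called lower (log2 fold change −0.64 ± 0.20, SE, edgeR adjusted p = 0.0359), but not with DESeq2 (adjusted p = 0.247). *Acta2* differed mainly between genotypes, with 7381, 6815, 12482 and 14754. Over the whole list of 10 smooth muscle and pericyte markers, 6 were higher in WH7 than in WH8 and in WH10 than in WH9 (*Acta2*, *Myh11*, *Cnn1*, *Tagln*, *Pdgfrb* and *Notch3*), some by little, beside 23% of all genes tested. *Abcc9* and *Kcnj8* ran the other way in both pairs, *Cspg4* in Ctrl and *Rgs5* in miR-128OE. *Abcc9*, encoding a potassium channel subunit, had 1770, 2161, 2793 and 2488 normalized counts in WH7, WH8, WH9 and WH10. The part of arterial tissue in the *Eln* values was not tested.

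**Figure D2:**
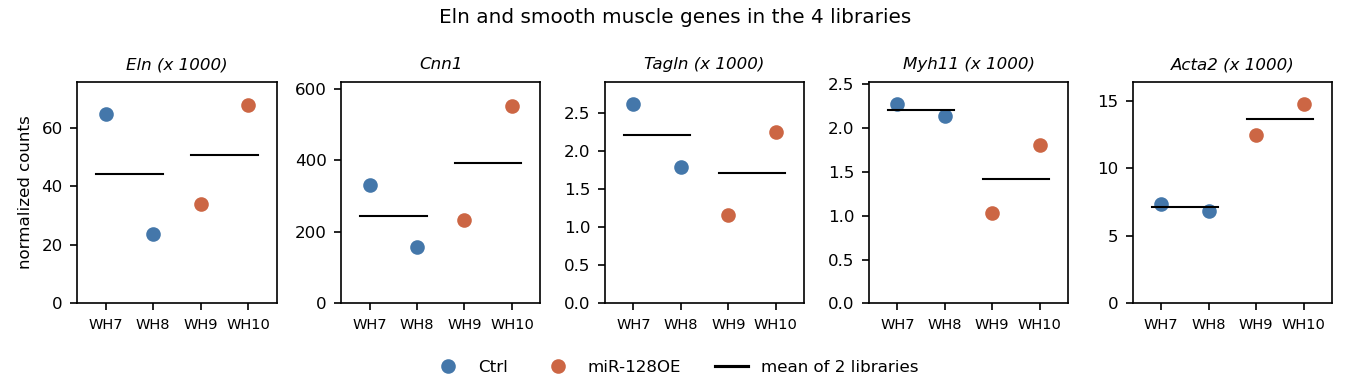
Normalized counts of *Eln* and 4 smooth muscle genes (vertical axes from 0, in units of 1000 where the panel says so) in each library (horizontal axes), with Ctrl in blue, miR-128OE in orange and the mean of 2 libraries as a line. *Acta2* is higher, and *Myh11* lower, in both miR-128OE libraries than in both Ctrl libraries. *Eln* and the 4 smooth muscle genes are all higher in WH7 than in WH8 and higher in WH10 than in WH9. The 4 genes were chosen from a list of 10, of which 6 had that order in both pairs.

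Of the 17 elastic fibre and microfibril genes, *Mfap4* and *Mfap5* were called higher and *Ltbp3* lower, against 16.5% and 15.0% of all genes tested. The median was 0.02 on the log2 scale, and −0.05 without the members *Eln*, *Mfap5* and *Fbln2*. *Mfap4*, a microfibril-associated glycoprotein gene, had 4025 and 1864 normalized counts in WH7 and WH8 and 5450 and 5038 in WH9 and WH10 (log2 fold change 0.83 ± 0.26, SE, adjusted p = 0.0396), and its adjusted p was 0.269 with DESeq2, 0.186 without WH9 and 0.116 without WH10. *Ltbp3*, whose product binds latent TGF-β, had a log2 fold change of −0.43 ± 0.13 (SE, adjusted p = 0.0284). It was −0.22 without WH7 (adjusted p = 0.106), and it was not called without WH9 (0.261) or WH10 (0.0775). The counts for the list were 10 higher and 1 lower without WH7 (18.3% and 16.7% of all genes), 2 and 6 without WH8, 1 and 0 without WH9, and 0 and 0 without WH10.

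*Fn1* and *Postn* are the members that organise the provisional and matricellular matrix. *Fn1* encodes fibronectin, the scaffold on which other matrix proteins and integrins assemble, and lies on chromosome 1 (chr1:71585520-71653200, minus strand). It had 6711 and 4914 normalized counts in WH7 and WH8, and 7212 and 7484 in WH9 and WH10. The groups of *Fn1* did not overlap, and its log2 fold change of 0.34 ± 0.13 (SE, adjusted p = 0.0798) missed the threshold. It was 0.58 without WH7 (adjusted p = 0.000172) and 0.13 without WH8 (0.216). *Fn1* was also called with DESeq2 (adjusted p = 0.0405) and with an offset for GC content and exon length (0.0324). *Postn*, encoding periostin, a matricellular protein of developing valves and of activated fibroblasts, lies on chromosome 3 (chr3:54361109-54391037, plus strand). It had 12267, 8369, 11790 and 13829 normalized counts in WH7, WH8, WH9 and WH10. The groups overlapped, as WH7 exceeded WH9. The log2 fold change of *Postn* was 0.31 ± 0.16 (SE, adjusted p = 0.170), with values of 0.61 without WH7 and 0.06 without WH8.

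Among 16 fibronectin-bound and matricellular genes, 5 were called higher (*Ccn1*, *Ccn2*, *Itgb1*, *Nid1* and *Sparc*) and none lower, beside 16.5% and 15.0% of all genes tested. The list included the members *Fn1*, *Postn* and *Fbln2*. The median log2 fold change was 0.28, and 0.235 without these members. *Ccn1*, which encodes a matricellular ligand of integrins, had 451, 356, 3437 and 3625 normalized counts in WH7, WH8, WH9 and WH10. Its log2 fold change of 3.12 ± 0.11 (SE, adjusted p = 5.75e-07) was the largest among the tested genes of the fibroblast and matrix lists. *Ccn2*, encoding connective tissue growth factor, had 1073 and 967 in Ctrl against 2088 and 2455 in miR-128OE, a log2 fold change of 1.15 ± 0.10 (SE, adjusted p = 9.65e-05). With any 1 library left out, the log2 fold change was 2.97 to 3.31 for *Ccn1* and 1.04 to 1.27 for *Ccn2*. *Itgb1*, the β1 integrin gene, had a log2 fold change of 0.54 ± 0.09 (SE, adjusted p = 0.00209), and missed the threshold without WH9 (0.0581). CMs and endothelial cells also express *Ccn1*, *Ccn2* and *Itgb1*, and which cells carried the change was not tested. The list had 12 genes higher without WH7 (18.3% of all genes), 4 without WH8 (17.0%), 2 without WH9 (5.65%) and 4 without WH10 (7.93%).

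*Pdgfra*, the receptor that is widely used to identify cardiac fibroblasts, lies on chromosome 5 (chr5:75152292-75198215, plus strand). It had 579 normalized counts in WH7, 441 in WH8, 674 in WH9 and 541 in WH10. The groups overlapped, each with a higher and a lower library. The log2 fold change of *Pdgfra* was 0.24 ± 0.15 (SE, adjusted p = 0.243), with a 95% interval from −0.09 to 0.57. It was 0.46 without WH7 (adjusted p = 0.0241) and 0.06 without WH8 (0.732). Of the 6 PDGF ligand and receptor genes, *Pdgfb* alone was called higher, and none lower, beside 16.5% and 15.0% of all genes tested. Their median was 0.17 on the log2 scale, and 0.11 without *Pdgfra*. *Pdgfb*, whose product from endothelium recruits pericytes, had 1033, 1098, 1234 and 1344 normalized counts in WH7, WH8, WH9 and WH10 (log2 fold change 0.28 ± 0.09, SE, adjusted p = 0.0345), and it lost its call with DESeq2 (0.0835), with total-count scaling (0.147), and with any library but WH8 left out (0.0161 without WH8). *Pdgfa*, a ligand of PDGFRα, had a log2 fold change of 0.26 ± 0.10 (SE, adjusted p = 0.0874). Without WH7 2 genes of the list were called higher, *Pdgfra* and *Pdgfa* (adjusted p = 0.0367), and *Pdgfb* was not (0.0673). Without WH8 1 was called higher, and without WH9 or WH10 none was.

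*Tcf21* lies on chromosome 10 (chr10:22817281-22820174, minus strand). It had 432 and 297 normalized counts in WH7 and WH8, and 437 and 472 in WH9 and WH10. The groups did not overlap, but WH7 and WH9 differed by little. Its log2 fold change was 0.30 ± 0.16 (SE, adjusted p = 0.175), which was 0.62 without WH7 and 0.08 without WH8. Among 14 transcription factors of mesenchymal cells, including *Tcf21*, 1 was called higher and 1 lower, beside 16.5% and 15.0% of all genes tested. Their median log2 fold change was 0.19, and 0.11 without *Tcf21*. *Scx*, encoding scleraxis, the factor of tendon and valve fibroblasts, had 59.4 and 72.1 normalized counts in Ctrl against 121 and 138 in miR-128OE (log2 fold change 0.99 ± 0.20, SE, adjusted p = 0.00604), and lost its call without WH10 (0.0665). *Zeb2*, a repressor of epithelial genes, fell, with a log2 fold change of −0.37 ± 0.11 (SE, adjusted p = 0.0277), and was not called without WH7 (0.0544) or WH9 (0.307). The third by p-value, *Meox2*, had a log2 fold change of 0.27 ± 0.11 (SE, adjusted p = 0.0808). The number of these factors called changed with the library left out. *Scx* and *Zeb2* had log2 fold changes of 0.847 and −0.317 without WH7, and of 1.12 and −0.416 without WH8.

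*Ddr2* encodes discoidin domain receptor 2, a receptor tyrosine kinase that is activated by fibrillar collagen. It lies on chromosome 1 (chr1:169972307-170110762, minus strand). *Ddr2* had 715 and 690 normalized counts in WH7 and WH8, and 594 and 576 in WH9 and WH10. It was the one fibroblast gene with both miR-128OE libraries below both Ctrl libraries, and the libraries of each group lay close together. Ctrl averaged 702 ± 17.9 (SD, n = 2), miR-128OE averaged 585 ± 12.7 (SD, n = 2), the log2 fold change was −0.27 ± 0.09 (SE), and the adjusted p was 0.0440, just under the threshold. The direction held in all 14 alternative settings, but the call was lost in 7, among them DESeq2 (adjusted p = 0.181) and the offset for GC content and exon length, which also reduced the change to −0.15. The antisense gene *3110045C21Rik*, which overlaps the exons of *Ddr2* by 90 nt, had 15, 10, 3 and 3 counts in WH7, WH8, WH9 and WH10. These were few beside the 488 to 782 counts of *Ddr2*. The antisense gene was also called lower (log2 fold change −2.30, edgeR adjusted p = 0.0145). Of the 4 genes with a seed match printed above, *Ddr2* was thus the one called, and *Pdgfra*, *Dcn* and *Fbln2* had log2 fold changes of 0.24, 0.21 and 0.25. Whether *miR-128* acts on any of these 4 genes was not tested. Antisense genes also overlap exons of *Pdgfra*, *Fn1* (292 nt) and *Eln* (267 nt), and reads of the 2 strands cannot be told apart because strand handling is not stated. A list of 15 genes held *Ddr2*, the collagens it binds, other collagen receptors and collagen-processing enzymes, and of these *Plod1* was called higher and *Ddr2* and *Bmp1* were called lower, where 16.5% and 15.0% of all genes tested were called. *Bmp1*, encoding the procollagen C-proteinase, had 3619, 3485, 2675 and 2959 normalized counts in WH7, WH8, WH9 and WH10 (log2 fold change −0.33 ± 0.08, SE, adjusted p = 0.0141). *Plod1*, encoding a lysyl hydroxylase of procollagen, had a log2 fold change of 0.31 ± 0.08 (SE, adjusted p = 0.0165). Neither was called without WH9 (adjusted p = 0.228 for *Bmp1* and 0.164 for *Plod1*) or without WH10 (0.0662 and 0.0889), nor *Plod1* with total-count scaling (0.0712). The median log2 fold change of the 15 genes was 0.11, and 0.14 without *Ddr2*. The list had 7 genes higher and 1 lower without WH7 (18.3% and 16.7% of all genes), 1 higher and 4 lower without WH8, and 0 in each direction without WH9 or without WH10.

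**Figure D3:**
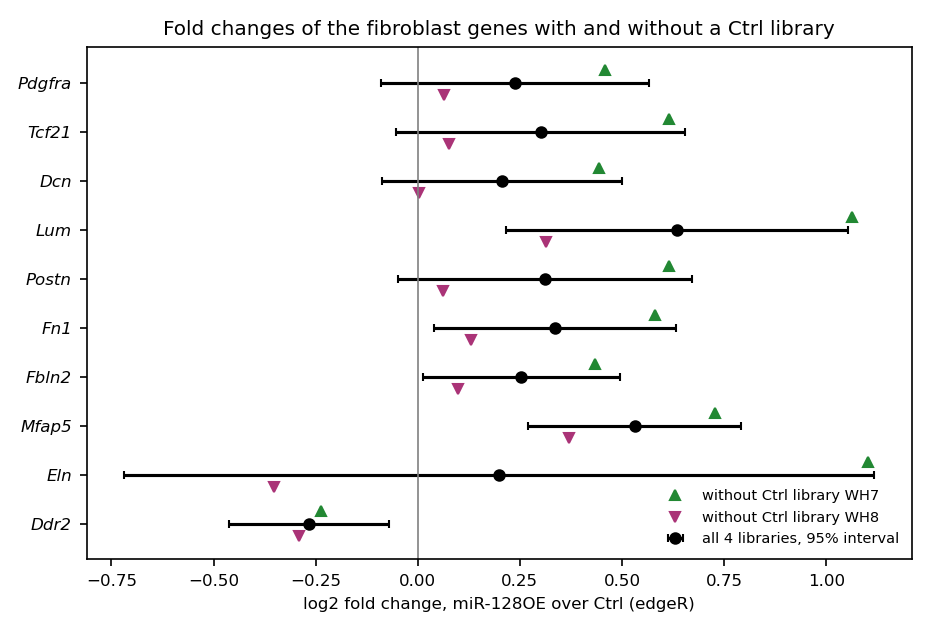
Log2 fold change of each fibroblast gene (miR-128OE over Ctrl, horizontal axis) from the edgeR fit, with all 4 libraries (black points, bars are 95% intervals), without WH7 (green) and without WH8 (purple). Without WH7 every gene moves upward, *Ddr2* only from −0.27 to −0.24, and without WH8 the values of *Pdgfra*, *Tcf21*, *Dcn* and *Postn* lie between 0 and 0.08 and *Eln* falls to −0.35.

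Levels per length differed widely among the fibroblast genes. Levels were taken as TMM-scaled CPM (counts in each 1000000 of the library) per kilobase of the longest transcript with a RefSeq mRNA record. The Ctrl means were 973 for *Eln*, 445 for *Dcn*, 273 for *Postn*, 76.8 for *Lum* and 70.4 for *Mfap5*. They were 59.3 for *Fn1*, 47.4 for *Fbln2*, 24.4 for *Tcf21*, 7.19 for *Ddr2* and 6.33 for *Pdgfra*. *Eln* and *Dcn*, the neighbours from *Lum* down to *Fbln2*, and *Ddr2* and *Pdgfra* were closer than the range of the Ctrl libraries of at least 1 of the pair, and *Mfap5* moved from rank 5 to rank 7 where all annotated exons were taken as the length. Since *Eln* held 45.9% to 62.7% of the normalized counts of the 10 genes, their sum followed *Eln*, with 103160, 51243, 73622 and 109620 in WH7, WH8, WH9 and WH10. Without *Eln* the sum was 38474, 27632, 39846 and 41945, and WH8 alone stood low.

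Other genes enriched in fibroblasts were counted to see whether they moved with the members. Of 20 such genes outside the collagens, 8 were called higher (*Clec3b*, *Thy1*, *Pi16*, *Medag*, *Htra3*, *Scara5*, *Gsn* and *Mfap4*) and 2 lower (*Lsp1* and *Efemp1*), beside 16.5% and 15.0% of all genes tested, and their median was 0.21 on the log2 scale. *Clec3b*, encoding tetranectin, had 454 and 284 normalized counts in WH7 and WH8, and 1028 and 988 in WH9 and WH10. Its log2 fold change was 1.42 ± 0.17 (SE, adjusted p = 0.000406). *Pi16*, a gene of adventitial fibroblasts, had 379 and 253 in Ctrl and 742 and 789 in miR-128OE (log2 fold change 1.25 ± 0.15, SE, adjusted p = 0.000504). *Thy1*, encoding the surface protein CD90, had 284 and 267 in Ctrl and 489 and 524 in miR-128OE, a log2 fold change of 0.87 ± 0.11 (SE, adjusted p = 0.0005). These 3 genes had groups that did not overlap, and the Ctrl libraries of *Thy1* lay close together. With any 1 library left out, the log2 fold change was 1.15 to 1.83 for *Clec3b*, 1.02 to 1.60 for *Pi16* and 0.83 to 0.93 for *Thy1*. It was 0.64 to 0.83 for *Medag*, 0.69 to 1.22 for *Htra3* and 1.13 to 1.73 for *Scara5*. These fits took their spread from the other group only, so they do not show that the calls are stable. *Gsn*, *Mfap4*, *Lsp1* and *Efemp1* each lost their calls in some of them. With all libraries, the changes of *Clec3b*, *Pi16*, *Thy1*, *Medag*, *Htra3* and *Scara5* ran from 0.73 to 1.42. The list had 14 higher and 1 lower without WH7, where 18.3% and 16.7% of all genes were called. It had 8 and 3 without WH8, and 6 and 0 both without WH9 and without WH10. *Pi16*, *Clec3b* and *Scara5* are known as genes of fibroblasts in the adventitia and in loose connective tissue, while *Tcf21* and *Pdgfra* mark resident fibroblasts throughout the heart.

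**Figure D4:**
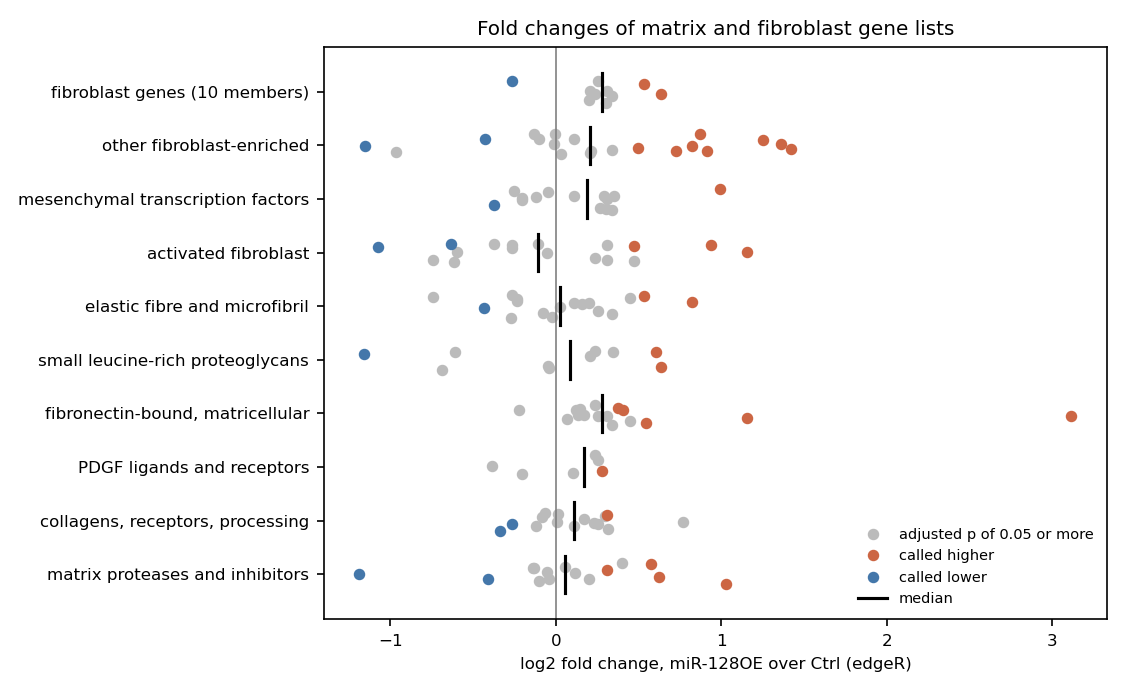
Log2 fold changes (miR-128OE over Ctrl, horizontal axis) of the 10 fibroblast genes and of 9 further lists of fibroblast and matrix genes, 1 point per gene, orange where called higher, blue where called lower and grey where not called, with the list's median as a line. The list of other fibroblast-enriched genes has 8 points called higher and 2 called lower, and the point at 3.12 is *Ccn1*.

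Of 17 genes of activated fibroblasts, *Ccn2*, *Acta2* and *Loxl2* were called higher, *Comp* and *Thbs4* were called lower, and 12, among them *Postn*, were not called. These shares were close to the 16.5% and 15.0% of all genes tested. Their median log2 fold change was −0.10, and −0.18 without *Postn*. *Acta2*, encoding smooth muscle α-actin, had a log2 fold change of 0.94 ± 0.10 (SE, adjusted p = 0.00029), and *Loxl2*, encoding a collagen cross-linking oxidase, 0.47 ± 0.08 (SE, adjusted p = 0.00282). *Acta2* is also made by smooth muscle and immature CMs. *Comp* and *Thbs4*, which encode related thrombospondin-family proteins, kept their calls only without WH8 among the 4 cases with a library left out. The number of the 17 called changed with the library left out. *Ccn2*, *Acta2* and *Loxl2* had log2 fold changes of 1.23, 0.999 and 0.552 without WH7, and of 1.08, 0.884 and 0.402 without WH8. *Comp* and *Thbs4* had −0.556 and −0.397 without WH7, and −1.41 and −0.815 without WH8. Of 15 matrix proteases and inhibitors, 4 were called higher and 2 lower, against 16.5% and 15.0% of all genes tested, with a median of 0.05. *Adamts1*, a protease that cleaves versican, had 493 and 411 normalized counts in Ctrl against 880 and 977 in miR-128OE (log2 fold change 1.03 ± 0.11, SE, adjusted p = 0.000236). *Timp4*, the metalloprotease inhibitor most typical of heart, had 74.1 and 102 in Ctrl against 45.5 and 31.1 in miR-128OE (log2 fold change −1.19 ± 0.29, SE, adjusted p = 0.0126). *Timp2*, another inhibitor of the family, had a log2 fold change of 0.57 ± 0.15 (SE, adjusted p = 0.0173). *Timp4* was not called without WH10 (adjusted p = 0.114), nor *Timp2* without WH9 (0.141), without WH10 (0.0662) or with DESeq2 (0.118). Without WH7 6 of the list were higher and 2 lower, and without WH8 2 were higher and 3 lower. Without WH9 1 was called in each direction, and without WH10 1 was higher and 0 lower.

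Markers of other heart cells were summed in each library, since the mix of cells bears on the level of fibroblast RNA in a whole heart. Their counts of calls are to be read beside the 16.5% higher and 15.0% lower of all genes tested. The 10 CM markers summed to 49370 and 53820 CPM, scaled by TMM, in WH7 and WH8, and to 63050 and 62150 in WH9 and WH10, with 5 genes called higher and 2 lower, and 3 higher and 0 lower without WH9 or without WH10. *Myh6*, encoding α-myosin heavy chain, had the most counts. It was lower in WH8 than in WH7, while the other 9 CM markers were higher in WH8. The 10 endothelial markers summed to 2179, 2201, 2273 and 2172 CPM in WH7, WH8, WH9 and WH10, with *Cdh5* the most counted. Of these, 2 were called in each direction, 0 in either without WH9, 1 higher and 0 lower without WH10, and 1 higher and 5 lower with total-count scaling. Of the 10 smooth muscle and pericyte markers, *Acta2* was the most counted. It had 7381 and 6815 normalized counts in Ctrl against 12482 and 14754 in miR-128OE. *Myh11* was lower in miR-128OE (log2 fold change −0.64), and the median over the 10 genes was 0.05. These markers summed to 2195, 2084, 2632 and 2968 CPM, with 3 called higher (*Acta2*, *Rgs5* and *Abcc9*) and 1 lower (*Myh11*). They had 1 higher and 0 lower without WH9, and 2 and 2 without WH10. The 10 macrophage markers summed to 171 CPM in WH7 and to 127 to 129 CPM in the other libraries, with *Csf1r* the most counted and *Cx3cr1* called lower, and 2 were lower without WH8. The 9 epicardial and mesothelial markers found in the table summed to 246, 169, 198 and 186 CPM, with *Aldh1a2* the most counted. None was called by the filtered quasi-likelihood test with TMM factors or by DESeq2. However, 3 were called lower without a filter on low counts. With edgeR's exact test, its likelihood ratio test or total-count scaling, 1 was called lower. The offset for GC content and exon length gave 1 in each direction. In the quasi-likelihood test *Msln* and *Wt1* had unadjusted edgeR p-values of 0.0190 and 0.0243. Without WH8 4 were called lower, and without WH7 1 was called higher. Here WH7 was the highest library in the macrophage and epicardial sums. No marker of these lists was at 0 in every library, and the fibroblast markers *Pdgfra* and *Tcf21* were well detected in all 4. The part of a changed mix of cells in the values of the fibroblast genes was not tested.

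**Figure D5:**
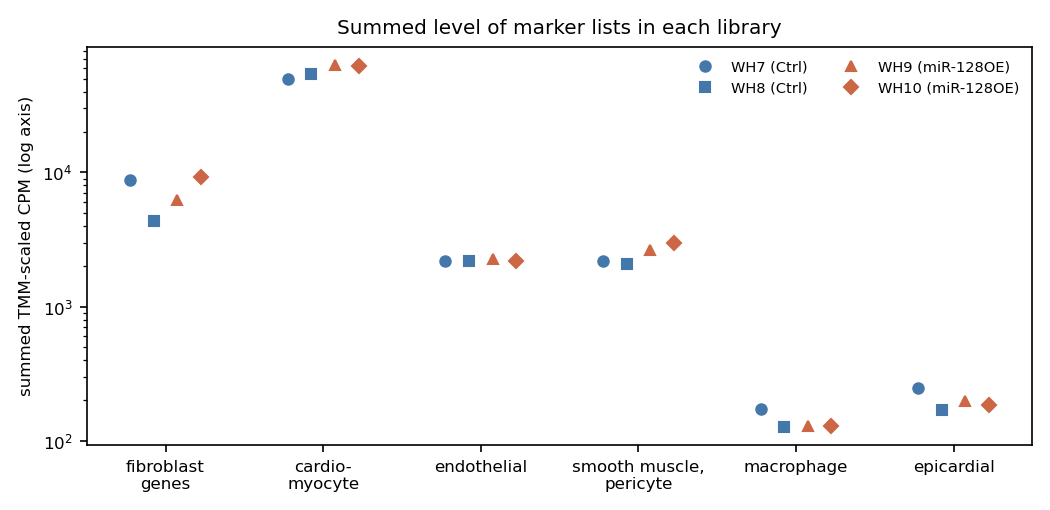
Summed TMM-scaled CPM (vertical log axis) of the 10 fibroblast genes and of markers of 5 other cell classes (horizontal axis) in each library, with Ctrl in blue and miR-128OE in orange. WH8 is the lowest library for the fibroblast genes, while the endothelial sums range from 2172 to 2273 CPM.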

How the data were processed

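RNA-seq of heart tissue at postnatal day 7 covered 2 Ctrl and 2 miR-128OE libraries, grouped by their labels. After low-quality reads had been discarded, the authors mapped reads to mm10 by TopHat2 and deposited raw counts of reads on known genes. The submitters' processing notes name bcl2fastq, TopHat and edgeR. Gene models, strand handling and the treatment of reads that match several genes are not given in the sources used here. Entrez identifiers were matched to RefSeq symbols (24374 of 24454) and loci were read from GENCODE M21 (GRCm38).

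Counts were analyzed with edgeR 4.0.16 in R 4.3.3: filterByExpr defaults (minimum count 10), TMM factors, the quasi-likelihood test, and Benjamini-Hochberg adjustment over the 14266 genes tested. Genotype was the only term, and the threshold was an adjusted p of 0.05. Standard errors (SE) were obtained from the fold change and the F statistic (log2 value over √F). The biological coefficient of variation was 8.78% and the prior degrees of freedom were 7.44. Library totals ranged from 8096870 to 14359838, and floors of 3 counts cover counting error only. Libraries of one group differed beyond counting noise (chi-square per degree of freedom 12.19 for Ctrl and 5.763 for miR-128OE), so no library was a duplicate deposit of another. This does not tell separate hearts from separate preparations of one RNA. The procedure was tested on simulated data. The 14 alternatives comprised 3 scalings, 2 filters, 3 tests including DESeq2 1.42.0, a 1.5-fold minimum, each library left out, and an offset for GC content and exon length.

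The members, gene lists and tests were chosen with earlier results of these data known. All 10 members were named. In each further list every tested gene was counted and the 3 with the smallest p-values were described, while markers of other cells were summed, apart from 1 list that is not reported here. *Muc16* was not matched in the table. Wild-type time courses mentioned in the series were not analysed here.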

Additional observations from a re-analysis of the deposited data

How the results depend on the processing

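The fibroblast genes called higher (2 with all libraries) became 1 with total-count scaling, 7 without a filter on low counts and 1 with a 1.5-fold minimum. Those called lower (1) became 0 without a filter, with DESeq2, with a 1.5-fold minimum and with the GC and length offset. With 1 library left out the counts ranged from 0 to 9 higher and from 0 to 1 lower, the 9 arising without WH7 and the 0 higher without WH10. Without a filter edgeR's prior degrees of freedom came out infinite, so each gene took the shared spread in place of its own, and even *Eln* passed (adjusted p = 0.0388). For the other changes the cause was not tested. Over all genes, 2347 called higher became 935 and 2143 called lower became 1187 with a 1.5-fold minimum, and DESeq2 called 1410 lower. Total-count scaling turned the balance, with 1611 genes called higher and 2948 lower. With 1 library left out 806 to 2613 were called higher and 616 to 2380 lower, with the fewest without WH9. *Eln* ranged from −0.38 to 1.10 with 1 library left out, being −0.35 without WH8, −0.38 without WH10 and 1.10 without WH7. Of 140 log2 fold changes of the 10 genes under alternatives, 111 kept direction and call, 13 lost the call, 14 gained it and 2 reversed. Of 420 counts for the other lists, 122 moved by over 1.5 times. Under total-count scaling the median over all genes went from −0.01 to −0.11 (log2), and over the 10 genes from 0.28 to 0.18. Depth left at least 210 counts for each of the 10 genes in every library. No paired analysis was possible because the labels give no replicate numbers that groups share.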
